A study of Homo sapiens with 15 samples.

Results

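CpG methylation was followed at the transcript starts of 10 imprinted genes whose germline methylated regions are well described: MEST, PEG3, PEG10, SNRPN, PLAGL1, NNAT, DIRAS3, L3MBTL1, KCNQ1OT1 and GNAS. A window of 1 kb to each side of every start of these genes in GENCODE release 44 (hg38) was kept apart, and mC, the share of reads at its CpGs that were methylated, was taken from the summed reads of each library. The genes have 168 distinct starts out of 194120 in the whole annotation of protein-coding and long non-coding RNA genes on chromosomes 1 to 22 and X. Starts of a gene that lie within 1 kb of a neighbour share CpGs, so they were joined into 39 start groups out of 87560, each described by 1 representative start and numbered 5′ to 3′ within its gene. All 168 starts held at least 5 CpGs and 50 reads in each of the 15 libraries, as did 187811 starts in all.

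At an imprinted gene the parental copies carry different methylation, laid down in the egg or the sperm and kept through every later cell division. The germline regions of these genes are methylated on the copy from the mother, so a cell with a marked and an unmarked copy reads near 50% across the CpG island. DNMT1 copies methylation onto the new DNA strand at replication, and UHRF1 binds the hemimethylated site and brings DNMT1 there. ZFP57, a zinc finger protein, guards many imprinted regions in the embryo by binding methylated TGCCGC. Reads were not split by parental copy here, so mC near 50% marks a candidate region and does not show which copy carried the methylation. Starts near 50% were therefore described by their level alone. Whether a window covers the germline region of its gene was not checked.

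The cells were HCT116, a human colorectal cancer line, with a doxycycline-inducible short hairpin RNA against UHRF1 (shUHRF1; clones Cl.3, Cl.6 and Cl.9) or against DNMT1 (shDNMT1; bulk populations R1 and R2). Whole-genome bisulfite libraries were read at 3 stages in each population: Baseline, grown to day 14 with no doxycycline; Knockdown, day 14 with 10 ng/mL doxycycline throughout; and Recovery, day 28, after 14 days with and 14 days without it. Every day 28 library had earlier doxycycline and every Baseline library was of day 14. Longer culture and the recovery itself thus cannot be told apart in a change from Baseline to Recovery. Every shUHRF1 library came from a clone and every shDNMT1 library from a bulk population, and the count tables also divide along this line, so shRNA, kind of population and count table cannot be told apart. Among the clones, Cl.3 and Cl.6 share a count table and Cl.9 has its own. Cl.9 was also read more deeply, with a median of 20 or 21 reads per CpG against 11 to 13 in Cl.3 and Cl.6. Clone, count table and depth thus cannot be told apart for Cl.9. Reads at CpGs ranged from 315707627 to 589607012 per library, with a median of 11 to 21 reads per CpG. No expression was measured in these libraries, so neither the depletion nor the identity of the line was checked here. At 941 representative starts with mC under 1% in the 4 other Baseline libraries, the Cl.6 Baseline library read 2.89%, against 0.268 to 0.550% in the 14 other libraries, so changes in Cl.6 start from a raised Baseline where mC is low. In what follows clone values stand in the order Cl.3, Cl.6 and Cl.9, and bulk values in the order R1 and R2.

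Most starts of these genes were not near 50% in HCT116 cells before knockdown. Of the 39 representative starts, 25 were above 65% in all 5 Baseline libraries, 4 were below 35% in all, 8 crossed these limits between populations, and 2 lay between 35 and 65% in all 5, MEST start 1 and PEG10 start 1. That is 5.13% of the representatives, against 4.93% of the 83821 representatives tested in all. Counting every start, 17 of 168 (10.1%) were half-methylated in all 5 populations, against 8589 of all 187811 (4.57%): 6 at MEST, 4 at PEG10, 6 at L3MBTL1 and 1 at DIRAS3. None of the starts of PEG3, SNRPN, PLAGL1, NNAT, KCNQ1OT1 or GNAS was. The map of mC by start and library shows the 3 levels side by side, and the 25 high starts had a median of 31 CpGs per window, against 102.5 at the 12 low and mixed starts. Over all representatives tested the median was 26 CpGs at high starts and 109 at low starts, so this split is not particular to these genes.

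**Figure D1:**
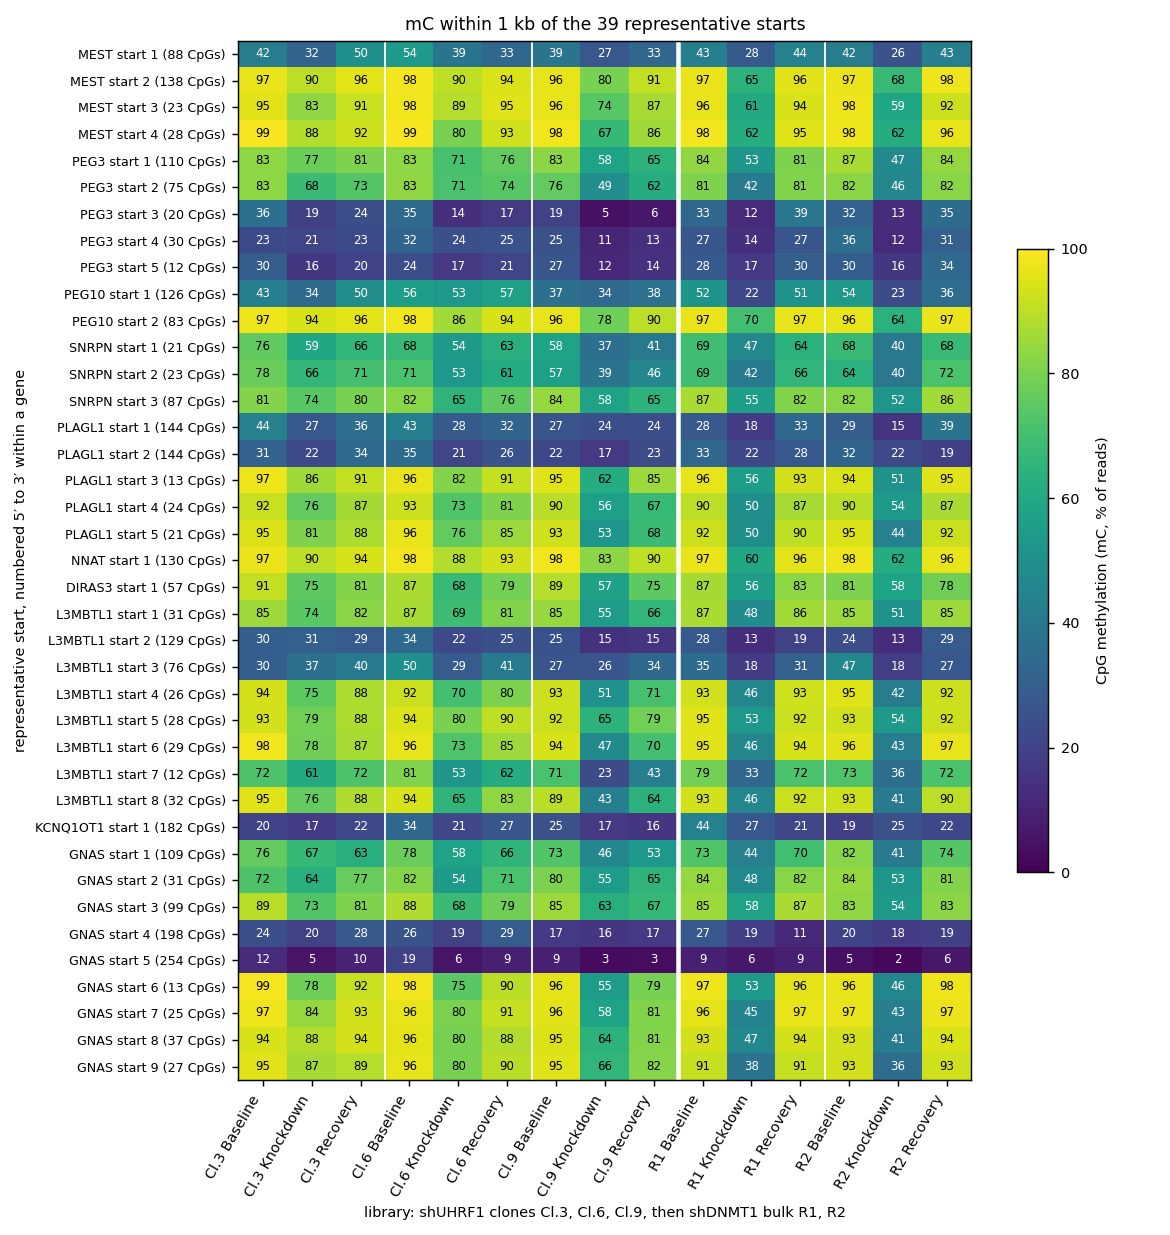
mC (%) within 1 kb of the 39 representative starts (rows, with the number of CpGs in the window) in the 15 libraries (columns, by population and stage; the thick line divides the shUHRF1 clones from the shDNMT1 bulk populations). Colour runs from 0 to 100% and the printed number is mC rounded to a whole percent; MEST start 1 and PEG10 start 1 are the rows at 37 to 56% in every Baseline column, and the high rows change at Knockdown, with 23 of 25 within 5 points of Baseline at Recovery in R1 and 23 in R2.

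MEST, which encodes a membrane protein of the alpha/beta hydrolase fold, had its half-methylated window at its first start group (chr7:130486171, plus strand, 88 CpGs), inside the antisense gene MESTIT1. Baseline mC was 42.2%, 54.3% and 38.5% (clones) and 43.2% and 42.1% (bulk). At Knockdown it was 32.03%, 38.8% and 27.3% (clones) and 28.4% and 25.5% (bulk), below its own Baseline in each of the 5. At Recovery it was 50.2%, 33.5% and 32.98% (clones) and 44.2% and 43.2% (bulk). Both bulk populations came back to their Baseline, while the clones went 3 ways, Cl.3 above its Baseline, Cl.9 between its Knockdown and Baseline levels, and Cl.6 below its Knockdown level.

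The mean change at MEST start 1 at Knockdown was -12.3 ± 2.85 points (SD, n = 3) in shUHRF1 and -15.7 ± 1.28 points (SD, n = 2) in shDNMT1. In log2 odds, the log2 ratio of methylated to unmethylated reads, the fall was -0.76 ± 0.25 (SE) in shUHRF1 (adjusted p = 0.00559) and -1.01 ± 0.31 in shDNMT1 (adjusted p = 0.00235; edgeR's quasi-likelihood test with Benjamini-Hochberg adjustment over the 187811 starts, as for every adjusted p that follows). With no population term the shUHRF1 call was lost (adjusted p = 0.0584), and without R2 the shDNMT1 call was lost (-0.94, adjusted p = 0.0646). The Recovery change in shDNMT1 was 1.07 ± 0.0536 points (SD, n = 2) and 0.06 ± 0.31 in log2 odds (unadjusted p = 0.839). In shUHRF1 it was -6.11 ± 14.4 points (SD, n = 3), not called (adjusted p = 0.161), but without Cl.3 it was -0.78 ± 0.25 in log2 odds and was called (adjusted p = 0.00580). The other 3 MEST start groups, downstream, were above 95% in every Baseline library; the CpG-dense one at chr7:130491329 (138 CpGs) read 96.8%, 98.2% and 96.4% (clones) and 96.99% and 97.2% (bulk), fell to between 79.98% and 90.4% in the clones and to 64.8% and 67.6% in R1 and R2, and stood at 95.99%, 94.3% and 90.8% (clones) and 95.7% and 97.6% (bulk) at Recovery. In shUHRF1 it was called below Baseline at Recovery (-1.24 ± 0.33, adjusted p = 0.00111), but not with CpGs of 5 or more reads in every library (-0.58, adjusted p = 0.463).

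PEG10, a retrotransposon-derived gene needed for the mouse placenta, shares its first start group (chr7:94656370, plus strand, 126 CpGs) with the divergent start of SGCE. Baseline mC was 43.1%, 56.02% and 36.9% (clones) and 51.9% and 54.1% (bulk). At Knockdown the clones read 34.4%, 53.2% and 34.2%, each below its own Baseline, and the bulk populations 21.6% and 22.8%, below every clone. At Recovery the clones read 49.5%, 56.9% and 37.7% and the bulk populations 51.3% and 35.7%. R1 was back at its Baseline and R2 was not: the Wilson 95% intervals of R2 were 51.2 to 57.1% at Baseline and 32.9 to 38.6% at Recovery, which covers counting error only, and since neighbouring CpGs share reads, such intervals are too narrow.

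The mean change at PEG10 start 1 at Knockdown was -4.76 ± 3.45 points (SD, n = 3) in shUHRF1, not called (-0.28 ± 0.24 in log2 odds, adjusted p = 0.253; 0.192 to 0.867 over the 13 settings tried), and -30.8 ± 0.701 points (SD, n = 2) in shDNMT1 (-1.98 ± 0.30, adjusted p = 1.25e-07). The difference itself was -1.70 ± 0.38 (shDNMT1 minus shUHRF1, adjusted p = 0.00574). It was not called without R1 (-1.71, adjusted p = 0.108), without R2 (-1.68, adjusted p = 0.144) or with no population term (-1.69, adjusted p = 0.430). The Recovery change was 2.68 ± 3.22 points (SD, n = 3) in shUHRF1 and -9.54 ± 12.6 points (SD, n = 2) in shDNMT1 (unadjusted p = 0.0644), that is -0.652 points in R1 and -18.4 in R2. The second PEG10 start downstream was above 96% in every Baseline library.

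Over MEST start 1 and PEG10 start 1 together, the mean Knockdown change was -8.53 ± 1.35 points (SD, n = 3) in shUHRF1 and -23.2 ± 0.991 points (SD, n = 2) in shDNMT1, and the mean Recovery change was -1.72 ± 8.61 and -4.24 ± 6.26 points. In shUHRF1 the Knockdown fall was called at MEST start 1 and not at PEG10 start 1. The SD of their mean therefore does not show that the 2 starts changed alike. The 4127 half-methylated starts outside the imprinted lists had a median of 27 CpGs per window, against 107 at these 2 starts. The sets thus differ in CpG density, and its part in the changes was not tested. A mean over 2 starts and a median over 4127 are also unlike measures. At the 4127 the median Knockdown change was -12.3, -18.7, -24.6, -26.7 and -27.1 points, clones first. Their median Recovery change was -8.21, -13.1, -19.6, -1.19 and -0.929 points. The plot of changes at half-methylated starts shows PEG10 start 1 above that median in each clone at both stages, and R2 at Recovery as the library in which PEG10 start 1 lay farthest below it; with 2 member starts this is a description and was not tested. NAP1L5, a nucleosome assembly protein family gene on chr4 (start at chr4:88697829), was the other half-methylated start among further imprinted genes that did not overlap these windows: it read 45.9%, 43.5% and 45.7% (clones) and 49.4% and 47.3% (bulk) at Baseline, 47.1%, 42.2% and 31.6% (clones) and 25.9% and 27.2% (bulk) at Knockdown, and 33.2%, 47.2% and 39.1% (clones) and 44.1% and 37.3% (bulk) at Recovery.

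**Figure D2:**
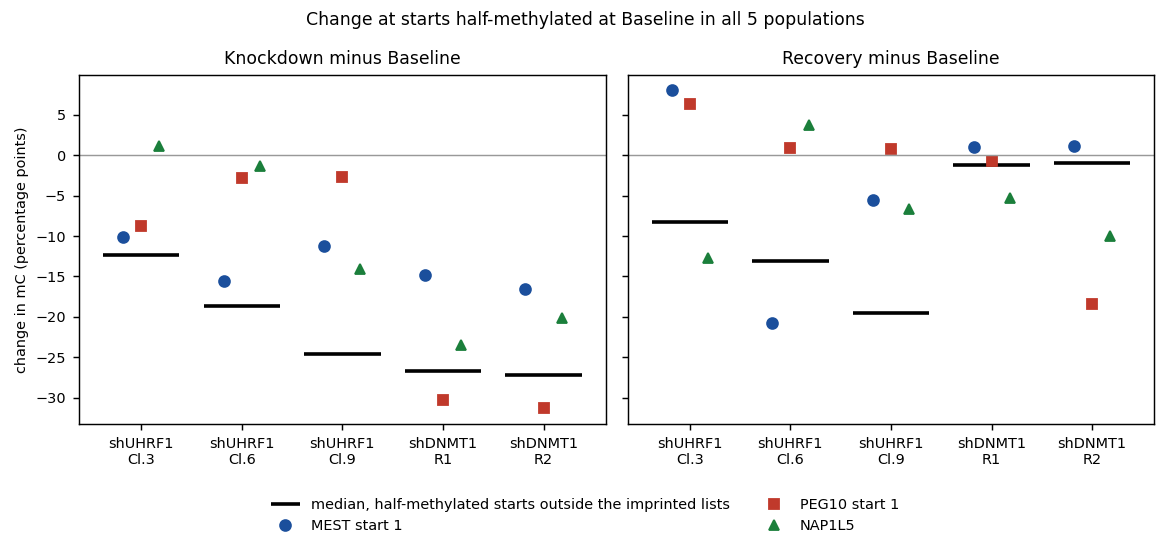
Change in mC (percentage points) from Baseline to Knockdown (left) and from Baseline to Recovery (right) in each population (x axis). Points are MEST start 1, PEG10 start 1 and NAP1L5, representative starts at 35 to 65% in all 5 Baseline libraries. SGCE is left out because it shares its CpGs with PEG10 start 1. Half-methylated starts that were not representatives, such as those of L3MBTL1 and DIRAS3, are not plotted. Black bars are the median of the 4127 other starts of this class; PEG10 start 1 lies between -8.74 and -2.73 points in the clones at Knockdown and at -30.3 and -31.3 points in R1 and R2.

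L3MBTL1, a Polycomb group-related reader of methylated histones, had 8 start groups, and its start 3 (chr20:43513955, plus strand, 76 CpGs, 20 overlapping starts) lay nearest 50%. Baseline mC was 29.8%, 49.7% and 26.5% (clones) and 34.9% and 46.7% (bulk), so the populations ranged widely before knockdown. At Knockdown it was 36.8%, 29.1% and 26.2% (clones) and 17.5% and 18.2% (bulk), and at Recovery 40.3%, 41.2% and 33.9% (clones) and 30.8% and 26.96% (bulk). Cl.3 read higher at both later stages than at Baseline, and Cl.9 held its Baseline level at Knockdown. Both bulk populations regained part of their loss, 76.3% in R1 and 30.7% in R2. The stages of a bulk population are matched by the number in their labels and by the parallel plating that the paper describes. The change was -0.28 ± 0.27 in log2 odds in shUHRF1 at Knockdown, not called (adjusted p = 0.309), and -1.66 ± 0.33 in shDNMT1 (adjusted p = 1.57e-05). The shUHRF1 change was called without Cl.3 (-0.62, adjusted p = 0.0403), with CpGs of 5 or more reads in every library (-0.83, adjusted p = 0.00884) and within 500 bp (-0.78, adjusted p = 0.0276). The difference between the shRNAs was -1.38 ± 0.42 (adjusted p = 0.0253), and it was not called without Cl.3, R1 or R2 or with no population term (adjusted p = 0.0895, 0.131, 0.319 and 0.430), nor with limma, that minimum of reads or 500 bp (0.0705, 0.0983 and 0.282).

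Around this L3MBTL1 window 6 starts were half-methylated in all 5 populations, and the one nearest 50%, at chr20:43515026, was chosen after its values were seen. It read 46.7%, 61.2% and 38.5% (clones) and 46.7% and 59.6% (bulk) at Baseline, 45.97%, 41.5% and 28.5% (clones) and 17.4% and 23.9% (bulk) at Knockdown, and 38.4%, 48.5% and 38.8% (clones) and 40.8% and 40.5% (bulk) at Recovery. DIRAS3, a RAS-related tumour suppressor, had 1 such start, at chr1:68050627 on the minus strand (72 CpGs). Its Baseline levels were 59.1%, 60.1% and 58.8% (clones) and 50.1% and 40.6% (bulk), its Knockdown levels 43.5%, 33.7% and 41.9% (clones) and 32.9% and 33.5% (bulk), and its Recovery levels 44.2%, 50.8% and 50.5% (clones) and 48.5% and 43.8% (bulk). The DIRAS3 start fell at Knockdown in both shRNAs, -1.15 ± 0.24 in log2 odds in shUHRF1 (adjusted p = 3.05e-05) and -0.74 ± 0.29 in shDNMT1 (adjusted p = 0.0155), and was still lower at Recovery in shUHRF1 (-0.63 ± 0.24, adjusted p = 0.0145). The shDNMT1 call was lost without R1 (-0.44, adjusted p = 0.346), within 500 bp (0.147) and with no population term (0.0899), and the shUHRF1 Recovery call without Cl.3 (0.0507) and with no population term (0.103). In R1 and R2 it stood near Baseline at Recovery.

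**Figure D3:**
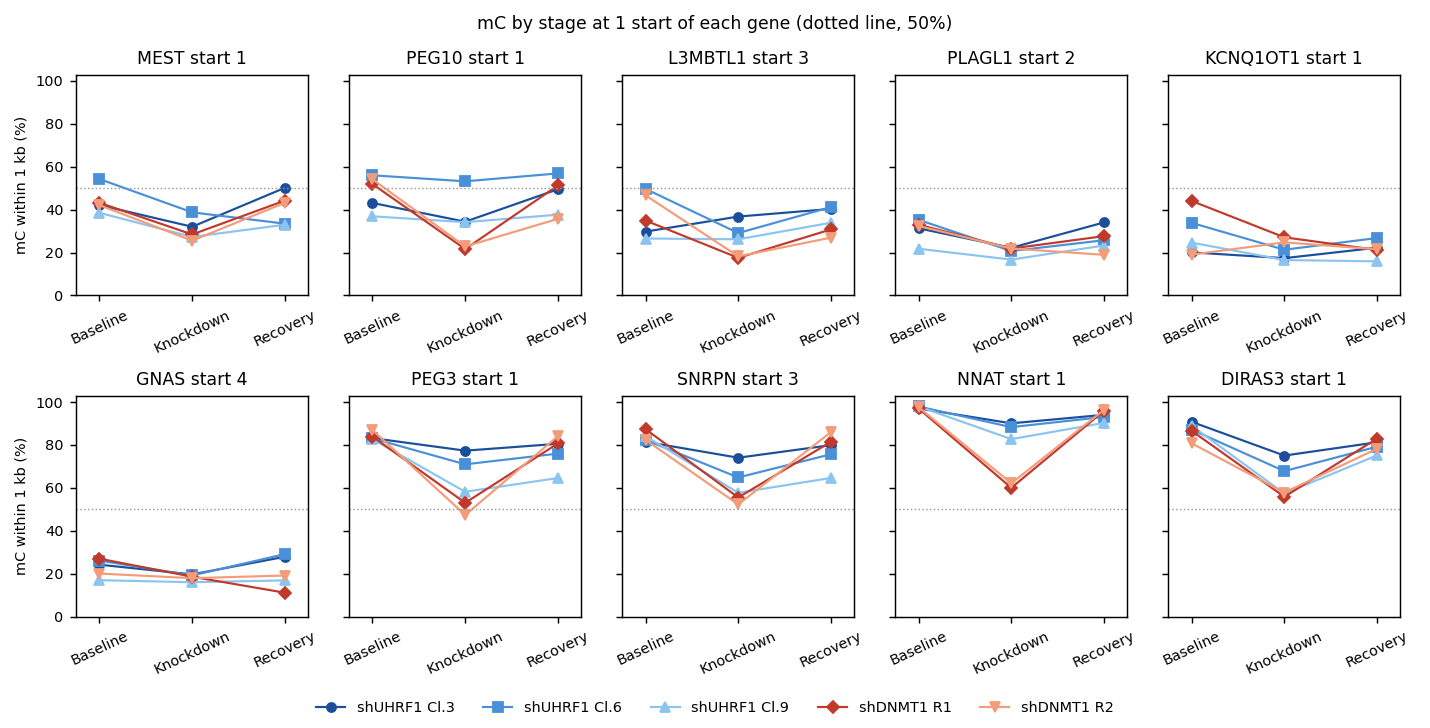
mC (%) within 1 kb of 1 start of each of the 10 genes (panels) at Baseline, Knockdown and Recovery (x axis), with a line and marker for each population (blues, shUHRF1 clones; reds, shDNMT1 bulk) and a dotted line at 50%. Each point is 1 library; the 4 lower right panels start at 80.8% or more, whereas at KCNQ1OT1 start 1 R1 goes from 44.1% to 27.1% and 21.2% and R2 from 19.04% to 24.8% and 21.5%.

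PLAGL1, a zinc finger growth regulator, had a pair of intermediate windows. Start 1 (chr6:144064599, minus strand, 144 CpGs), its representative nearest 50%, read 43.6%, 43% and 26.5% (clones) and 28.04% and 29.5% (bulk) at Baseline, 27.5%, 28.2% and 23.9% (clones) and 17.6% and 15.4% (bulk) at Knockdown, and 35.9%, 32.3% and 23.9% (clones) and 33.5% and 38.6% (bulk) at Recovery. R1 and R2 ended above their Baseline there, and each clone below its own. Start 2 (chr6:144008259, 144 CpGs), which lies in the imprinted non-coding gene HYMAI, read 31.3%, 35.3% and 21.8% (clones) and 33.02% and 32.4% (bulk) at Baseline, 22.2%, 20.7% and 16.7% (clones) and 21.9% and 21.9% (bulk) at Knockdown, and 34.1%, 25.7% and 23.3% (clones) and 27.7% and 18.95% (bulk) at Recovery. It fell in both shRNAs at Knockdown (-0.73 ± 0.24 in shUHRF1, adjusted p = 0.00461; -0.80 ± 0.29 in shDNMT1, adjusted p = 0.00947). Those calls were lost in shUHRF1 without Cl.6 (adjusted p = 0.0770), in shDNMT1 without R1 (0.0964) or R2 (0.0857), and in both within 500 bp of the start (0.234 and 0.896, the latter with a change of -0.094) and with no population term (0.0591 and 0.0847). In R2 the level at Recovery was below that at Knockdown. The Recovery change in shDNMT1 was -9.41 ± 5.73 points (SD, n = 2, unadjusted p = 0.0219, adjusted p = 1).

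KCNQ1OT1, the non-coding RNA that silences neighbouring genes in cis and starts inside KCNQ1 on the opposite strand, had 1 start group (chr11:2699994, minus strand, 182 CpGs). Its levels at Baseline were 20.1%, 33.8% and 24.7% in the clones, but 44.1% and 19.04% in R1 and R2, a gap of 25.03 points between the bulk populations. The median gap between R1 and R2 at Baseline was 4.19 points over the 2616 CpG-dense starts (80 CpGs or more) that were neither high nor low in all 5 populations. At Knockdown it read 17.4%, 21.3% and 16.5% (clones) and 27.1% and 24.8% (bulk), and at Recovery 22.3%, 26.8% and 15.9% (clones) and 21.2% and 21.5% (bulk). R1 read lower at each step, and the order of R1 and R2 was not kept. The fall in shUHRF1 was -0.64 ± 0.27 (adjusted p = 0.0266) and was not called without Cl.6 (adjusted p = 0.136), without Cl.9 (0.104), with no population term (0.142), with limma (0.0793) or with CpGs of 5 or more reads in every library (0.0549). In shDNMT1 the Knockdown change was not called (-0.30 ± 0.33, adjusted p = 0.381), but without R2, which left R1 alone and assumed to vary like the clones, it was -1.08 (adjusted p = 0.0279).

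GNAS, which encodes the stimulatory G protein alpha subunit from several promoters, had 9 start groups. By their order along the gene, start 1 matches the NESP55 promoter, start 3 the XLαs promoter, start 4 exon A/B and start 5 the promoter of Gsα itself. The match rests on order alone, and which of these start groups covers a germline region was not checked. Start 1 (chr20:58839748, inside GNAS-AS1, 109 CpGs), the representative nearest 50%, read 75.96%, 77.7% and 72.8% (clones) and 73.03% and 82.1% (bulk) at Baseline, 66.99%, 58.01% and 46.2% (clones) and 43.5% and 41.1% (bulk) at Knockdown, and 62.9%, 65.6% and 53.2% (clones) and 69.8% and 73.8% (bulk) at Recovery. Start 3 (chr20:58853263) was higher, with Baseline levels from 83.5% to 89.2%, and at Recovery it stood at 80.6%, 78.5% and 66.6% in the clones, each below its Baseline, and at 87.4% and 82.5% in R1 and R2. The Recovery change in shUHRF1 was -1.20 ± 0.24 (adjusted p = 3.89e-05) and was called in each of the 13 settings. Start 4 (chr20:58889160, 198 CpGs) read 24.2%, 26.1% and 16.9% (clones) and 26.98% and 20.04% (bulk) at Baseline, 19.7%, 19.2% and 16.02% (clones) and 18.6% and 17.9% (bulk) at Knockdown, and 27.9%, 29.1% and 16.9% (clones) and 11.1% and 19.1% (bulk) at Recovery, and no Knockdown change was called there (adjusted p = 0.187 in shUHRF1 and 0.158 in shDNMT1; at or above 0.141 in each of the 13 settings). The Recovery change there was called lower in shDNMT1 (-0.98 ± 0.40, adjusted p = 0.0488), but it was 0.59 where only CpGs with 5 or more reads in every library were used (adjusted p = 0.341) and was not called without any 1 of the populations (adjusted p = 0.0584 to 0.723; -0.24 without R1 and -1.72 without R2), with limma (0.0979), with no population term (0.324) or with no filter on CpGs and reads (0.05025). Start 5 (chr20:58891421, 254 CpGs) was low, 12.3%, 19.4% and 8.72% (clones) and 8.72% and 4.56% (bulk) at Baseline, 5.44%, 5.81% and 2.87% (clones) and 6.34% and 2.07% (bulk) at Knockdown, and 9.59%, 8.76% and 3.28% (clones) and 8.91% and 6.34% (bulk) at Recovery. It fell in shUHRF1 (-1.65 ± 0.28, adjusted p = 1.15e-06, with the call kept without Cl.6) and in shDNMT1 (-0.80 ± 0.34, adjusted p = 0.0237; lost without R2, -0.49, adjusted p = 0.337, within 500 bp, -1.23, 0.266, and with no population term, 0.208). At Recovery it was below Baseline in shUHRF1 (-1.07 ± 0.27, adjusted p = 6.00e-04; 0.0741 with no population term).

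PEG3 start 1, SNRPN start 3, NNAT start 1 and DIRAS3 start 1 read 80.8% or more in every Baseline library; PEG3 start 1 and SNRPN start 3, like PLAGL1 start 2 and GNAS start 4, were chosen as the CpG-dense windows of their genes after their values were seen. PEG3, a zinc finger gene that shares its first exons with ZIM2, read 83.2%, 83.1% and 82.7% (clones) and 83.9% and 86.97% (bulk) at its start 1 (chr19:56840726, minus strand, 110 CpGs) at Baseline, 77.3%, 70.97% and 58.2% (clones) and 53.02% and 47.4% (bulk) at Knockdown, and 80.5%, 75.98% and 64.6% (clones) and 80.7% and 84.2% (bulk) at Recovery. SNRPN, a small nuclear ribonucleoprotein gene of the Prader-Willi region, read 81.5%, 82.3% and 84.1% (clones) and 87.4% and 82.4% (bulk) at start 3 (chr15:24954935, plus strand, 87 CpGs), then 74.1%, 64.9% and 57.7% (clones) and 55.5% and 52.3% (bulk), then 79.9%, 75.7% and 64.6% (clones) and 81.5% and 86.05% (bulk). At both genes Cl.9 was the lowest of the 5 at Recovery, and R1 and R2 lay above every clone; R1 at SNRPN start 3 was 81.5% against 87.4% at Baseline, and the other bulk values lay within 5 points of theirs. NNAT, a small membrane proteolipid of neurons inside BLCAP on the opposite strand (chr20:37521250, plus strand, 130 CpGs), read 97.03%, 97.9% and 97.96% (clones) and 97.02% and 97.6% (bulk), then 90.1%, 88.3% and 82.7% (clones) and 60.01% and 62.1% (bulk), then 94.1%, 93.1% and 90.3% (clones) and 95.9% and 96.4% (bulk). DIRAS3 start 1 (chr1:68051717, minus strand, 57 CpGs) read 90.8%, 87.2% and 88.96% (clones) and 86.6% and 80.8% (bulk), then 75.1%, 67.8% and 57.4% (clones) and 55.8% and 57.8% (bulk), then 81.3%, 79.2% and 75.2% (clones) and 83.01% and 78.3% (bulk).

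All 4 fell at Knockdown in both shRNAs and stayed lower at Recovery in shUHRF1. At Knockdown NNAT start 1 changed by -2.64 ± 0.29 in log2 odds in shUHRF1 and -4.53 ± 0.34 in shDNMT1 (adjusted p = 2.24e-10 and 8.98e-15), and the difference was -1.90 ± 0.45 (adjusted p = 0.00812; lost without R1, adjusted p = 0.111, without R2, 0.169, with CpGs of 5 or more reads in every library, 0.0659, and with no population term, 0.430). At DIRAS3 start 1 the changes were -2.01 ± 0.26 and -1.97 ± 0.31 (adjusted p of the difference 0.946). The Recovery call in shUHRF1 at PEG3 start 1 (-0.79 ± 0.26, adjusted p = 0.00648) was lost without Cl.9 (-0.45, adjusted p = 0.145) and with no population term (0.108). That at SNRPN start 3 (-0.78 ± 0.28, adjusted p = 0.0109) was lost without Cl.9 (-0.36, adjusted p = 0.255), with no population term (0.117) and within 500 bp (0.124). That at DIRAS3 start 1 (-1.15, adjusted p = 1.79e-04) was lost within 500 bp (-0.74, adjusted p = 0.120), and that at NNAT start 1 under none of the 13 settings. In R1 and R2 the shares of the loss regained were 97.03% and 96.6% at NNAT, 89.7% and 92.9% at PEG3, 81.6% and 112.2% at SNRPN and 88.3% and 89.03% at DIRAS3. A pair of windows with few CpGs had the level nearest 50% in their genes. PEG3 start 3 (chr19:56833747, 20 CpGs) read 36.5%, 34.7% and 19.2% (clones) and 32.9% and 31.6% (bulk), then 18.9%, 13.7% and 4.66% (clones) and 12.4% and 12.7% (bulk), then 24.04%, 17.2% and 6.48% (clones) and 39.3% and 35.3% (bulk), and SNRPN start 1 (chr15:24823725, 21 CpGs) read 75.6%, 67.5% and 57.95% (clones) and 69.2% and 67.5% (bulk), then 59.4%, 53.7% and 36.6% (clones) and 47% and 39.9% (bulk), then 66.4%, 63.1% and 40.6% (clones) and 64.1% and 67.9% (bulk). In both, each of the 3 clones ended below its Baseline. The bulk populations ended above theirs at PEG3 start 3, and R1 below and R2 above at SNRPN start 1.

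Over the 39 representative starts, 36 fell at Knockdown in shUHRF1, against 96.8% of all representative starts tested, and 37 in shDNMT1, against 97.4%. The 3 not called in shUHRF1 were PEG10 start 1, L3MBTL1 start 3 and GNAS start 4, and the 2 not called in shDNMT1 were KCNQ1OT1 start 1 and GNAS start 4. At Recovery 30 were below Baseline in shUHRF1 (87.9% of all), and 21 were above Knockdown (52.9%). In shDNMT1 36 were above Knockdown at Recovery (97.0%) and 0 differed from Baseline (0.0%) by edgeR; 4 had an unadjusted p under 0.05, MEST start 3, PLAGL1 start 2, L3MBTL1 start 3 and GNAS start 4, and limma called none of the member starts. Over all 168 starts, many of which share their CpGs, 48 had an unadjusted p under 0.05 in this comparison, 19 of them low, 19 mixed, 6 half-methylated and 4 high at Baseline, where 3.30% of all 187811 starts did. The 6 half-methylated ones, of 17, were the L3MBTL1 starts around start 3 (-0.77 to -0.68 in log2 odds, not called), where 1.85% of all 8589 half-methylated starts had such a p. The Knockdown change was more negative in shDNMT1 at 14 starts (21.6% of all) and the Recovery change higher (less negative or more positive) at 16 (45.7%), and 1, GNAS start 4, was called the other way (0.0155%). Of the 17 half-methylated starts, which share CpGs within a gene, 9 fell at Knockdown in shUHRF1 (94.5% of all half-methylated starts tested) and 17 in shDNMT1 (99.9%). At Recovery 1 was below Baseline in shUHRF1 (75.7%), and the Knockdown change was more negative in shDNMT1 at 10 (12.8%). CpG density was not matched in these shares, and with windows of 4 genes this is a description. Counted over all 168 starts, 130 fell at Knockdown in shUHRF1 (94.7% of all starts tested), 145 in shDNMT1 (95.1%), and 97 were below Baseline at Recovery in shUHRF1 (83.4%). Of the same 168, 63 rose from Knockdown to Recovery in shUHRF1 (39.6%) and 130 in shDNMT1 (94.4%). The Knockdown change was more negative in shDNMT1 at 65 (18.3%), and the Recovery change was higher at 52 (41.3%) and lower at 11 (0.0229%). Of these 11, 10 were low and 1 was mixed at Baseline, and as close starts share CpGs they need not be separate windows. Among representatives only GNAS start 4 was called lower, and its difference was 0.59 with CpGs of 5 or more reads in every library. Nothing is thus read from the 11 about the members.

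By Baseline class, all 25 high starts fell at Knockdown in both shRNAs, as did 99.96% of all high representatives in shUHRF1 and 100% in shDNMT1. At Recovery 24 were below Baseline in shUHRF1 (96.2% of all high), all but GNAS start 2. Of the 14 others, 11 fell in shUHRF1 (91.3% of all representatives that were not high) and 12 in shDNMT1 (92.8%) at Knockdown, and 6 were below Baseline at Recovery in shUHRF1 (73.3%). By level, 23 of the 25 high starts in R1 and 23 in R2 stood within 5 points of Baseline at Recovery, near the 93.2% and 93.8% of all high representatives. Of the 12 low or mixed starts 5 did so in R1 and 7 in R2, where 81.7% and 83.9% of all low or mixed representatives did. These 12 were 4 low and 8 mixed starts, whereas 16763 of the 26225 low or mixed representatives were low. Of those low ones 91.1% and 92.6% stood within 5 points, so the pooled share is no like-for-like measure for these members. Of the 2 half-methylated starts 2 and 1 did so, where 67.5% and 67.9% of all half-methylated representatives did. In the clones the high member starts regained a median 62.5%, 60.01% and 49% of falls of 10 points or more, against 50.4%, 57.96% and 48.3% over all high representatives. Over all 39, the median Knockdown change was -10.7, -16.1, -24.5, -31.9 and -32.3 points, clones first, against -11.1, -17.5, -28.6, -36.5 and -37.4 points over all representatives.

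In bins of 500 bp the intermediate level lay around the start, between more methylated flanks, at MEST start 1 but not at every start. At MEST start 1, R1 read 85.9% in the bin 1000 to 500 bp upstream, 40.3% in the first 500 bp downstream and 92.4% between 1500 and 2000 bp downstream at Baseline. PEG10 start 1 was uneven within its window. The first 500 bp downstream read 76.2% in R1 and 79.1% in R2 at Baseline, 24.6% and 18.8% at Knockdown, and 79.5% and 62.8% at Recovery. The 500 bp upstream went from 23.3% to 25.3% between Baseline and Recovery in R1 and from 33.1% to 5.24% in R2, in a bin with as few as 61 reads in a library. At KCNQ1OT1 start 1 the bin 1500 to 1000 bp upstream was lower at Knockdown and back at Recovery, 86.8%, 29.6% and 84.8% in R1 at the 3 stages, whereas the first 500 bp downstream read 35.1%, 20.8% and 11.6%. In R2 the upstream bin read 85.1%, 45.3% and 85.3%, and the first 500 bp downstream 9.54%, 22.01% and 10.9%, highest at Knockdown. At GNAS start 4 the same upstream bin read 85.4%, 35.7% and 81.5% in R1 and 86.9%, 27.9% and 79.5% in R2. The first 500 bp downstream of it read 20.7%, 12.9% and 7.18% in R1 but 14.2%, 7.94% and 16.4% in R2. No test was made on single bins.

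**Figure D4:**
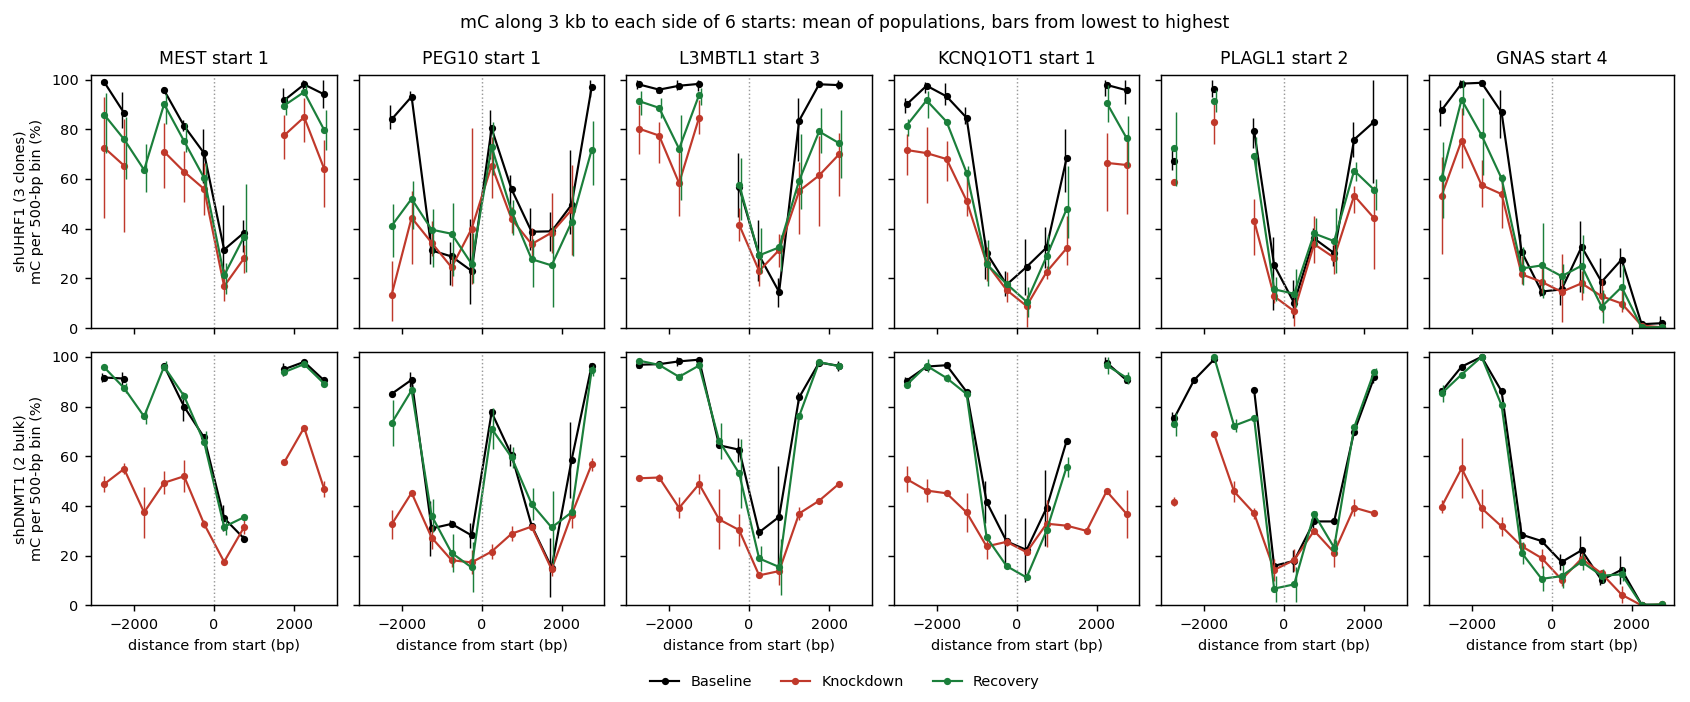
mC (%) in bins of 500 bp from 3 kb upstream to 3 kb downstream of 6 starts (x axis, distance from the start along the gene), for the shUHRF1 clones (top) and the shDNMT1 bulk populations (bottom) at Baseline, Knockdown and Recovery. Points are means over the populations with 20 or more reads in every one, and vertical bars run from the lowest to the highest population, so they show spread and not an error of the mean; at KCNQ1OT1 start 1 in R1 and R2 the upstream flank is lower at Knockdown than at Baseline or Recovery.

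Single CpGs were mostly intermediate at some of these windows and mostly low at others. With the reads of the 5 Baseline libraries summed, 60.2% of the 88 CpGs with 20 or more reads at MEST start 1 lay between 25 and 75%, 29.6% did at Knockdown and 57.95% at Recovery. At PEG10 start 1 the shares were 60.4%, 64.96% and 56.2%, and CpGs above 75% went from 26.7% to 0% and 18.2%. At L3MBTL1 start 3 they were 53.4%, 27.6% and 60.5%. KCNQ1OT1 start 1 had 44.2%, 35.2% and 17.1%, and 53.6% of its CpGs were under 25% at Baseline. At PLAGL1 start 1 and start 2, 22.9% and 16.55% of CpGs were intermediate at Baseline and 60.4% and 76.98% were under 25%. At NNAT start 1 none of the 81 CpGs measured lay in this range at Baseline, 42.3% of 130 did at Knockdown and 3.45% of 87 at Recovery. At PEG10 start 1 the CpGs measured numbered 101, 117 and 121, so the shares at the stages do not cover the same CpGs. The reads pool populations, so these shares have no replicate error.

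The letters bound by ZFP57 were counted in each window on both strands (TGCCGC, read as GCGGCA on the other strand). Of the 39 representative windows 19 held at least 1, against 34.0% of the 83821 representative windows tested; among windows of 80 CpGs or more it was 13 of 15, against 74.2% of 19494. PEG10 start 1 and GNAS start 4 held none, MEST start 1 and L3MBTL1 start 3 held 2 each, and KCNQ1OT1 start 1, PLAGL1 start 2 and PEG3 start 1 held 6 each. The runs below are examples and leave out other copies, such as those of GNAS, SNRPN start 3 and PEG10 start 2, whose CpGs also had reads. They are 30 bases of hg38 on the strand that reads TGCCGC, and capitals mark the motif copy. The PLAGL1 run also holds a copy on the other strand, left in lower case.
MEST start 1, chr7:130486188-130486217 (-): cccagcatgtgcTGCCGCcttctccctgcc
MEST start 1, chr7:130486932-130486961 (-): ccgcgccaccacTGCCGCtctccgccctgg
KCNQ1OT1 start 1, chr11:2699454-2699483 (+): ccgccgggagagTGCCGCgctgaggagccc
KCNQ1OT1 start 1, chr11:2699994-2700023 (-): cagtcggagcgcTGCCGCagtctccaggca
PLAGL1 start 2, chr6:144008333-144008362 (+): tgccgtgggcttTGCCGCccgcggcagcca
L3MBTL1 start 3, chr20:43513949-43513978 (+): ctgccaccgtccTGCCGCagcttagcgccg
NNAT start 1, chr20:37521467-37521496 (+): ctgcgtcgcgatTGCCGCttcccggacccg
PEG3 start 1, chr19:56840005-56840034 (-): gcggggcttgttTGCCGCagtggtggtggg

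The first MEST run, 31 bp downstream of the start, held a CpG at 24.2%, 10.9% and 15.9% at Baseline, Knockdown and Recovery in the summed shUHRF1 clones and 36.7%, 10.3% and 36.1% in the summed shDNMT1 populations, on 30 to 46 reads per stage. The second, 775 bp downstream, read 71.1%, 58.1% and 75% and 35.1%, 50% and 50%. The first KCNQ1OT1 run read 22.6%, 18.8% and 17.9% and 19.05%, 24% and 12% (21 to 39 reads), and the second, 14 bp upstream of the start, 16.7%, 12% and 15.8% and 17.4%, 47.6% and 20% (15 to 25 reads). The PLAGL1 run read 27.8%, 10.5% and 14.8% and 7.69%, 11.54% and 0% (13 to 27 reads). The L3MBTL1 run at its start read 24.4%, 23.7% and 40% and 40%, 18.8% and 18.8% (25 to 45 reads), and the NNAT run 100%, 92.9% and 100% and 100%, 83.3% and 100% (5 to 14 reads). The PEG3 run read 100%, 58.3% and 85.7% and 84.6%, 47.1% and 100% (8 to 21 reads). These counts are too few to compare stages at a single site. A matching run of letters is no measure of ZFP57 binding, which was not measured.

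The authors' domain lists, made for each library, assign stretches to highly methylated domains (HMDs), partially methylated domains (PMDs), low-methylated and unmethylated regions (LMRs, UMRs), and a start can lie in more than 1. At Baseline 20, 21, 24, 22 and 21 of the 39 representative starts lay in an HMD in Cl.3, Cl.6, Cl.9, R1 and R2, and 58.3 to 61.2% of all 83821 did. At Knockdown it was 14, 6, 0, 0 and 0 (38.7%, 13.9%, 0.00716%, 0.00597% and 0.00119% of all), and at Recovery 22, 18, 10, 21 and 20 (54%, 51.4%, 25.9%, 56.9% and 56.7%). Starts in a UMR numbered 10, 8, 11, 6 and 9 at Baseline (22.3 to 23.3% of all) and 12, 13, 14, 15 and 19 at Knockdown (26.2%, 28.5%, 36.9%, 44.7% and 46.7%). The shares of all starts in an HMD or a UMR moved the same way, so nothing is read from these counts about the members. Starts in a PMD numbered 13, 16, 6, 14 and 15 at Baseline (13.3%, 15.6%, 7.9%, 18.1% and 17.4% of all). At Knockdown they numbered 10, 18, 25, 14 and 15 (20.4%, 41.2%, 65.1%, 49.3% and 49.4%). The member counts thus rose with the shares of all in Cl.6 and Cl.9 but not in Cl.3, R1 and R2, which was not tested. At Baseline MEST start 1 lay in an LMR and a PMD in R1 and in a PMD and a UMR in R2, and PEG10 start 1 in a PMD alone in both. Both starts lay in a UMR without a PMD at Knockdown in R1 and R2, and in both a PMD and a UMR at Recovery. A domain covers many CpGs beyond a window, and the lists carry no error.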

How the data were processed

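Whole-genome bisulfite libraries of 5 HCT116 populations at 3 stages were analysed, 15 in all in 6 groups. The authors aligned reads with the Meth10X pipeline and deposited, per CpG and library, the count of methylated reads and the count of all reads, in 3 tables (30 count columns, 29456478 positions each). They also deposited lists of methylation domains for each library. The submitters' processing notes name hg38 and bedtools 2.25.0, and none of the 29175448 positions on chromosomes 1 to 22 and X fell on a base other than a CpG cytosine of hg38. How duplicate reads were treated is not given in the sources used here. Reads at CpGs numbered 315707627 to 589607012 per library.

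The counts were summed within 1 kb of each GENCODE release 44 start, and a window was kept where each library had 50 reads or more over 5 CpGs or more. The representative of a start group was the start with the most transcripts, and the leading start of a gene was the representative with mean Baseline mC nearest 50%. Other starts are named as chosen after their values were seen. Methylated and unmethylated counts of all windows were fitted at once with edgeR 4.0.16 (R 4.3.3) by the quasi-likelihood test, with population as a block and shRNA by stage as groups, Benjamini-Hochberg adjusted over all windows, and called under 0.05. The SE of a change in log2 odds was worked back from this test, as the size of the change over the square root of F. It is thus an approximate SE. limma 3.58.1, with 1 read added, was an alternative; the others were the filter, a minimum of 5 reads per CpG, a 500 bp window, no block, representatives only, other class bands, single-CpG means, and leaving out each population. Tables were handled in Python 3.11.15 with numpy 2.4.6, scipy 1.17.1, pandas 2.3.3 and matplotlib 3.10.9. On simulated counts of 20000 windows (shUHRF1 Recovery minus Baseline), 97% of planted falls of 15 points and 100% of 30 points were recovered and 3.902% of calls were false. The simulated noise was sized from the spread between R1 and R2, each clone was given the same fall, and most windows were left unchanged. The rates hold for that setting only. They do not carry over to clones that differ from each other or to a comparison in which most starts were called.

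The stages of a clone pair because they are the same clone, and deviations from the group mean correlated by 0.515 to 0.824 between them (20449 windows). For R1 and R2 the labels give a shared number, and the paper took changes between plates grown in parallel for bulk populations too. Their deviations did not correlate (-0.00935 to 0.0217), so the counts do not show this pairing. The block of R1 and R2 and the shares regained in each rest on the number and on that description. The paper describes Baseline and Knockdown as separate plates of a line grown in parallel. How R1 and R2 were set apart is not given there, so p-values measure the spread between these samples. That spread was shared over all 15 libraries in the fit. The p-values of shDNMT1 changes thus rest on the spread between clones too, and not on R1 and R2 alone. Pairs of libraries of a group differed by a mean chi-square of at least 3.64 per window, so none was a copy of another. No columns of other samples were present. The genes and lists were chosen with earlier results of these data known.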

Additional observations from a re-analysis of the deposited data

Results flagged for a closer look

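The difference between the shRNAs itself passed edgeR's quasi-likelihood test at some representative starts of these genes, and each is given with the difference in log2 odds, shDNMT1 minus shUHRF1. At Knockdown the change was more negative in shDNMT1 at 14 starts, MEST start 2 (-1.70), MEST start 3 (-1.75), PEG3 start 1 (-1.41), PEG3 start 2 (-1.17), PEG10 start 1 (-1.70), PEG10 start 2 (-1.34), NNAT start 1 (-1.90), L3MBTL1 start 3 (-1.38), L3MBTL1 start 4 (-1.59), L3MBTL1 start 5 (-1.48), GNAS start 1 (-1.05), GNAS start 7 (-1.75), GNAS start 8 (-1.77) and GNAS start 9 (-1.64). At Recovery the change was higher (less negative or more positive) in shDNMT1 at 16 starts, MEST start 4 (1.91), PEG3 start 3 (1.65), PEG10 start 2 (1.47), PLAGL1 start 1 (0.92), PLAGL1 start 4 (1.16), PLAGL1 start 5 (1.63), NNAT start 1 (1.23), L3MBTL1 start 4 (1.33), L3MBTL1 start 6 (2.52), L3MBTL1 start 8 (1.48), GNAS start 3 (1.28), GNAS start 5 (1.34), GNAS start 6 (2.60), GNAS start 7 (2.03), GNAS start 8 (1.43) and GNAS start 9 (1.73). It was lower at 1, GNAS start 4 (-0.98).

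The calls were lost in part under other settings. Without R1 or without R2 none of the 14 Knockdown differences was called by edgeR (adjusted p = 0.108 to 0.247 and 0.144 to 0.4999), and of the 16 at Recovery 1 was called without R1 and 0 without R2 (adjusted p = 0.0424 to 0.304 and 0.0767 to 0.2804). Without Cl.6, 8 of the 14 were lost, with the difference and adjusted p then found: MEST start 3 (-1.75, adjusted p = 0.0680), PEG3 start 1 (-1.35, 0.0609), PEG3 start 2 (-1.02, 0.129), PEG10 start 2 (-1.55, 0.0622), L3MBTL1 start 4 (-1.32, 0.105), L3MBTL1 start 5 (-1.41, 0.0750), GNAS start 1 (-1.12, 0.0867) and GNAS start 7 (-1.49, 0.102). Of the 16, 7 were lost without Cl.6: PEG10 start 2 (1.36, adjusted p = 0.0772), PLAGL1 start 1 (0.81, 0.126), PLAGL1 start 4 (1.14, 0.109), NNAT start 1 (1.21, 0.0874), L3MBTL1 start 4 (1.44, 0.0584), GNAS start 5 (1.21, 0.0548) and GNAS start 8 (1.31, 0.0809), as was GNAS start 4 (-0.95, 0.0844). Without Cl.3 7 of the 14 and 0 of the 16 were lost, and without Cl.9 0 and 9. Within 500 bp 9 and 12 were lost, with CpGs of 5 or more reads in every library 7 and 2 (of 15 tested), and with limma 3 and 5. Among those lost within 500 bp the difference shrank over 1.5-fold at PEG3 start 2 (-0.51) and L3MBTL1 start 3 (-0.86) at Knockdown, and at Recovery at PLAGL1 start 5 (0.63), L3MBTL1 start 4 (0.80), GNAS start 5 (0.48), GNAS start 6 (1.21), GNAS start 7 (0.90) and GNAS start 8 (0.57). It also moved over 1.5-fold at PEG3 start 2 with CpGs of 5 or more reads (-0.61), at GNAS start 1 without R2 (-0.60) and at GNAS start 8 without Cl.3 (-1.16) at Knockdown, and at Recovery at GNAS start 8 without Cl.9 (0.94) and at GNAS start 4 without R1 (-0.24), without R2 (-1.72) and with CpGs of 5 or more reads (0.59). With no population term all were lost (adjusted p = 0.4299 to 0.434 at Knockdown and 0.279 to 0.362 at the 16).

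shRNA, kind of population and count table divide the libraries in the same way and cannot be told apart in any of these. The groups held 3 and 2 libraries, too few for a test of the gap between 1 library and the others of its group.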

How the results depend on the processing

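Shares are of the 168 member starts, and the share of all starts tested under the same settings stands after "all starts". Leaving out each population in turn gave 63.1 to 88.1% called lower at Knockdown (77.4% with all; all starts, 86.5 to 95.2%) and 41.1 to 61.9% at Recovery (57.7%; all starts, 66.4 to 86.7%) in shUHRF1, 19.6 to 31.6% above Knockdown at Recovery (37.5%; all starts, 18.4 to 42.6%), and in shDNMT1 71.4 to 86.9% (86.3%; all starts, 85.5 to 95.5%), 0% below Baseline at Recovery, and 63.7 to 77.98% (77.4%; all starts, 84.8 to 94.9%). The difference between shRNAs went to 0 to 48.2% at Knockdown (38.7%; all starts, 0.0245 to 39.6%) and 0 to 43.5% at Recovery (30.95%; all starts, 1.94 to 61.3%), at its lowest without R1 or R2, when the population left is assumed to vary like the others. Without Cl.6, the clone whose Baseline library had a raised background, 63.1% were called lower at Knockdown in shUHRF1 (all starts, 86.5%). Leaving out Cl.6 removes all its stages, so this share cannot be tied to that library.

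With no replicate block the shUHRF1 Recovery share was 35.7% (all starts, 51.3%), and the shares for Recovery against Knockdown in shUHRF1 and for both differences between shRNAs were 0% (all starts, 0%, 0% and 0.00106%). Within 500 bp, shUHRF1 Recovery against Knockdown was 22.6% (all starts, 26.3%) and the Recovery difference 6.55% (19.95%); over representatives the former was 56.4% (all representatives, 56.9%). limma gave 17.3% for the Recovery difference (all starts, 31.6%), and a minimum of 5 reads per CpG 20.8% for the Knockdown difference (12.9%). That minimum also reversed GNAS start 4, from -0.98 to 0.59 in the Recovery difference. Why these moved was not tested.

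The class of half-methylated representatives held 2 starts, 4 with a minimum of 5 reads per CpG, and 0 within 500 bp or with a band of 40 to 60%, where no mean could be given. Their mean Knockdown change in shUHRF1 was -11.7 points with that minimum, -6.12 from single-CpG means and -12.2 over 1 half-methylated start per gene, an alternative added after the data were seen; in shDNMT1 it was -25.04 and -20.2 points under the first pair. Without each population it ran from -9.30 to -8.07 in shUHRF1 and -23.9 to -22.5 in shDNMT1, the Recovery change from -6.18 to 2.41 and -8.66 to 0.188, and the share regained in shDNMT1 from 63.8 to 100.8%. As reported, a share regained has no value in shUHRF1, where no clone's mean over the 2 starts fell by 10 points; with a minimum of 5 reads per CpG Cl.6 and Cl.9 fell by 17.3 and 10.5 points, and over 1 half-methylated start per gene by 16.4 and 11.1. Over 1 start per gene the shUHRF1 Recovery change was -6.13 ± 3.90 points with each clone below Baseline (-3.30, -10.6 and -4.51).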

Other observations

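Among 27 further imprinted genes, among them H19, IGF2R, MEG3 and ZNF331, 97 representative starts were tested, and 91 fell at Knockdown in shUHRF1 (96.8% of all representatives) and 93 in shDNMT1 (97.4%) by edgeR's quasi-likelihood test. At Recovery 84 were below Baseline in shUHRF1 (87.9%) and 0 in shDNMT1 (0.0%). The Knockdown change was more negative in shDNMT1 at 21 (21.6%) and the Recovery change higher at 48 (45.7%). The start nearest 50% was half-methylated in all 5 populations at 2 of the 27 genes, NAP1L5 and SGCE, high at 12, low at 6 and mixed at 7. SGCE shares its CpGs with PEG10 start 1 and read 42.1%, 54.5% and 35.4% (clones) and 50.98% and 50.5% (bulk) at Baseline, 35.2%, 53.3% and 34.6% and 20.9% and 20.8% at Knockdown, and 50.5%, 58.9% and 35.9% and 48.2% and 32.1% at Recovery. Some of these genes overlap the windows of the 10 genes described above, so the lists are not independent.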
